A study of Mus musculus with 15 samples.

Results

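The growth arrest genes followed here are 9 members of related families: Gadd45a, Gadd45b and Gadd45g, the Gadd45 binding protein gene Gadd45gip1, the B cell translocation genes Btg1, Btg2 and Btg3, and their relatives Tob1 and Tob2. They were picked by gene symbol from the 24490 genes of the count files, and all 9 were found and passed the filter on low counts that left 14907 genes for testing. The list was drawn up with earlier results of these data known, for the way its members moved with time after Foxl2 siRNA and in control cells. Values over time are therefore given as descriptions, without tests. Tests are kept for the mean effect of Foxl2 siRNA over both times and for the effect of Esr2 siRNA. The Esr2 siRNA libraries had no part in the choice, but the control libraries they are compared with were also part of the control time course. That test is therefore not wholly free of the choice.

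The cells were primary granulosa cells of the ovary, which enclose the oocyte in the follicle, from 8-week-old female mice of the outbred stock RjOrl:SWISS. All were transfected with 30 pmol of siRNA by means of Lipofectamine RNAiMax, a lipid reagent. The groups, each of 3 libraries, were Foxl2 siRNA at 54 h, Foxl2 siRNA at 30 h, Esr2 siRNA at 30 h, and a non-targeting scrambled siRNA at 54 h and at 30 h. Each siRNA preparation against a target was a pool of 3 siRNAs, 4 pools are named for each target, and the labels list identical catalogue numbers for Foxl2 and Esr2. The pool behind each library is not given. The times are those of the sample titles, since the extraction protocol speaks of 30 h only. Whether the replicates were separate cultures or animals is not stated by the labels, so the scatter behind a p-value may be technical. That scatter is pooled over the 3 libraries of each of the 5 groups, also for a comparison of only some of them. In bulk RNA, fewer cells of a type and less RNA per cell cannot be told apart.

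FOXL2 is a forkhead transcription factor that maintains granulosa cell identity, and ESR2 is the estrogen receptor most abundant in these cells. GADD45 proteins are small acidic stress proteins without enzymatic activity: they bind p38 and JNK pathway kinases, the CDK1-cyclin B complex, PCNA and the CDK inhibitor p21. BTG and TOB proteins share an amino-terminal domain that binds the catalytic subunits of the CCR4-NOT deadenylase, which shortens poly(A) tails of mRNAs. Both families slow cell division when overproduced, and several members are transcribed within minutes to hours of stress or growth factor signals.

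Libraries held 45.0 M to 59.6 M gene counts, and a member had between 1094 and 16651 counts in a library. Counting error was not small beside the spread between libraries in every group. Some groups were very tight, with an SD of 0.313 about a mean of 25.6 for Gadd45gip1 after Foxl2 siRNA at 54 h. Narrow gaps between groups may therefore lie within counting error. Levels are counts-per-million (CPM) after TMM scaling. They are not divided by gene length and are compared only within a gene. Foxl2 averaged 38.8 ± 16.7 CPM after Foxl2 siRNA at 54 h and 42.5 ± 20 at 30 h, 118 ± 8.43 after Esr2 siRNA, and 169 ± 17.6 and 157 ± 16.1 in scrambled cells at 54 h and 30 h (SD, n = 3 each). Over both times after its own siRNA Foxl2 fell by 2.0 ± 0.22, a log2 change (SE, edgeR adjusted p = 1.37e-05). The knockdown was uneven: replicate 2 at 54 h kept 57.5 CPM of Foxl2 and replicate 3 at 30 h kept 65.4, against 25.2 to 33.8 in the other 4 Foxl2 siRNA libraries. Esr2 fell by 2.15 ± 0.35 after Esr2 siRNA (edgeR adjusted p = 0.00375) and also fell by 1.09 ± 0.24 over both times after Foxl2 siRNA (edgeR adjusted p = 0.0026).

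Of 12 granulosa markers, Fshr averaged under 1 CPM in every group. Cyp19a1, the aromatase gene, averaged 0.0556 ± 0.025 CPM at 54 h after Foxl2 siRNA, against 3.46 ± 0.378 in scrambled cells, and at 30 h it averaged 0.394 ± 0.499 after Foxl2 siRNA and 1.55 ± 0.47 after Esr2 siRNA, against 2.86 ± 0.462 in scrambled cells. The 12 markers had a summed level of 2890 to 4010 CPM in Foxl2 siRNA libraries, 2910 to 3230 in Esr2 siRNA libraries and 3630 to 3870 in scrambled libraries. Over both times after Foxl2 siRNA 1 of the 12 was called higher and 6 lower, where 21.3% and 23.7% of all genes tested were. The 6 include Foxl2 itself, the target of this siRNA, and Esr2, the target of the other. Of 9 ovarian surface epithelium markers, 7 were called higher over both times after Foxl2 siRNA, where 21.3% of all genes were. After Foxl2 siRNA the sum of the 9 was 731 to 754 CPM at 54 h, against 302 to 387 in scrambled cells. At 30 h the sum was 461 to 478 CPM, against 346 to 391 in scrambled cells. This sum was 372 to 399 CPM after Esr2 siRNA. The mean of this sum ordered the 5 groups as the level of Gadd45b did, and its part in the results was not tested. Theca and stroma markers, with Cyp17a1 averaging under 1 CPM, varied widely between libraries of a group. After Foxl2 siRNA they summed to 1050 to 2590 CPM at 54 h and 783 to 2020 at 30 h. In scrambled cells they summed to 695 to 1970 CPM at 54 h and 856 to 1840 at 30 h, and after Esr2 siRNA to 694 to 1630. Leukocyte markers summed to 2.92 to 6.92 CPM over all libraries (2 of 3 tested were called higher after Foxl2 siRNA, where 21.3% of all genes were). Endothelial markers summed to 2.72 to 14.2 CPM and oocyte markers to 0.447 to 0.803 CPM.

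Over both times, 6 of the 9 members differed after Foxl2 siRNA, against 45% of all 14907 genes tested. Gadd45a, Gadd45b, Gadd45g, Btg2 and Tob1 rose, 5 of 9 where 21.3% of all genes were called higher, and Btg1 fell, 1 of 9 where 23.7% of all genes were called lower. The changes ran between 1.31-fold down for Btg1 and 2.88-fold up for Gadd45g, and their median over the 9 members was 0.74 on the log2 scale, against -0.01 over all genes tested. After Esr2 siRNA at 30 h, Btg2 alone passed the test, 1 of 9 against 4.23% of all genes (1.13% higher), and the median log2 change of the members was 0.27, against -0.01 over all genes.

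Promoter sequences of the members called over both times after Foxl2 siRNA, other than Tob1, are shown as a description of the letters upstream of them. RefSeq promoter windows, 250 bases before to 50 after a transcription start on GRCm38.p6, were found for 8 of the 9 members. Capitals mark matches, on either strand, to the forkhead core GTAAACA, a p53 decamer (the repeated unit of a p53 site), the cAMP response element core TGACGTC and the octamer core ATGCAAA. The last 2 motifs were added after the windows had been read.

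The Gadd45a window, minus strand of chr6:67037358-67037657, holds a p53 decamer 40 bases upstream of the start and octamer cores 96 and 70 bases upstream.
Gadd45a: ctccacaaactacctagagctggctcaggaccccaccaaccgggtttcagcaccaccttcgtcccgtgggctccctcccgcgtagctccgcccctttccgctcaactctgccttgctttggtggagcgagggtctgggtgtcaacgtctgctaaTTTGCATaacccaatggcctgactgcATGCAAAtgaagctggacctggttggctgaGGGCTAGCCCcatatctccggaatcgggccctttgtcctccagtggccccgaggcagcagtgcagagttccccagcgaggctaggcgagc
The Gadd45g window, plus strand of chr13:51846425-51846724, holds an octamer core 102 bases upstream.
Gadd45g: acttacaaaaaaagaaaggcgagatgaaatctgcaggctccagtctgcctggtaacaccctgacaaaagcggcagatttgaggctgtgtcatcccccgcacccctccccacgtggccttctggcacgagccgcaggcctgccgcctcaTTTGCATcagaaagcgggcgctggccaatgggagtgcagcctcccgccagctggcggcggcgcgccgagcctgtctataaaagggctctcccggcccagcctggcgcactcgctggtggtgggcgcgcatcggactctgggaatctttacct
The Gadd45b window, plus strand of chr10:80929841-80930140, holds none of these letters.
Gadd45b: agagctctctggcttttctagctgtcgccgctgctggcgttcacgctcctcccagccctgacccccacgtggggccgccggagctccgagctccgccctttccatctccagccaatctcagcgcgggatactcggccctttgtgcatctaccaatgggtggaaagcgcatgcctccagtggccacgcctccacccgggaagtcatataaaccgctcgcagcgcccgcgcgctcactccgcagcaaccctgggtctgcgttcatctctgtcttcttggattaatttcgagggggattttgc
The Btg1 window, plus strand of chr10:96616751-96617050, holds the forkhead core on its minus strand, 204 bases upstream.
Btg1: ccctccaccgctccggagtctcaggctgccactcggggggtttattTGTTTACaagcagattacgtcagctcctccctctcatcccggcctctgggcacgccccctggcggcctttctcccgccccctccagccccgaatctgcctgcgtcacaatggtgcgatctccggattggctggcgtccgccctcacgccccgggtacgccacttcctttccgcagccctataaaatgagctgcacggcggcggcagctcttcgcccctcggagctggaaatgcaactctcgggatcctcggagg
The Btg2 window, minus strand of chr1:134079106-134079405, holds the palindrome TGACGTCA, which gives overlapping matches to the cAMP response element core 166 and 165 bases upstream.
Btg2: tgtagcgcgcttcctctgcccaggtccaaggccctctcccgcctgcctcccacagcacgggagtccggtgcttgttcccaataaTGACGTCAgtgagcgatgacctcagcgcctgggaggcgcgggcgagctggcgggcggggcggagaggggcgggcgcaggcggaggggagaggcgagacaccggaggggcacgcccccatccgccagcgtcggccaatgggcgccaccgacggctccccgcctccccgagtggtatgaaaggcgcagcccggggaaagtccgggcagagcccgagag

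Btg1, the member that fell, was the only one of the 8 with the forkhead core in its window, and 3.65% of all 32851 promoter windows hold it. A p53 decamer is in 8.36% of all windows, the cAMP response element core in 3.21% and the octamer core in 4.63%. None of these letters were in the windows of Btg3, Tob1 or Tob2. A match is a description of sequence, and a window without one says only that these letters are not in it.

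Gadd45b, located on chromosome 10 at 80930091 to 80932204 (GRCm38.p6, plus strand), encodes a GADD45 protein that binds the JNK pathway kinase MKK7. Its level was 86.5, 77.3 and 81.1 CPM after Foxl2 siRNA at 54 h, against 20.2, 25.4 and 22.8 in scrambled cells at that time. At 30 h it was 45.4, 51.7 and 50.6 CPM after Foxl2 siRNA, against 30.7, 29.2 and 27.7 in scrambled cells. Every Foxl2 siRNA library was above every scrambled library at its time, and the 3 libraries of a group lay close together, including those with the most Foxl2 left. Over both times Gadd45b rose 2.46-fold, a log2 change of 1.30 ± 0.06 (SE, edgeR quasi-likelihood test, adjusted p = 3.92e-08). After Esr2 siRNA it was 29.2, 32.1 and 29.5 CPM, within the range of the scrambled libraries but for 1 library above it, with a log2 change of 0.05 ± 0.08 (edgeR adjusted p = 0.839).

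Gadd45b was also the member whose time course differed most between the siRNAs. Its log2 change between 54 h and 30 h was 0.73 ± 0.08 after Foxl2 siRNA and -0.36 ± 0.08 in scrambled cells, a difference of 1.09 ± 0.12. All 3 libraries at 54 h were above all 3 at 30 h after Foxl2 siRNA, and all 3 were below them in scrambled cells. The excess over scrambled cells was accordingly 1.84 ± 0.09 on the log2 scale at 54 h and 0.75 ± 0.08 at 30 h.

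Gadd45g, on chromosome 13 at 51846675 to 51848475 (plus strand), encodes the third GADD45 protein, best known in the gonad for its role in starting testis determination in the mouse. Foxl2 siRNA libraries held 71.9, 57.6 and 96.4 CPM at 54 h, against 20, 22.4 and 20.2 in scrambled libraries. At 30 h they held 72.7, 99.4 and 69 CPM, against 38.2, 33.8 and 33 in scrambled libraries. The groups did not overlap at either time. The lowest Foxl2 siRNA library of each time, at 57.6 CPM at 54 h and 69 at 30 h, was the one with the most Foxl2 left. At 30 h the next library was close, at 72.7 CPM. Gadd45g rose 2.88-fold over both times, a log2 change of 1.53 ± 0.12 (SE, edgeR adjusted p = 1.18e-06).

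The time course of Gadd45g lay mostly in the control cells. Between 54 h and 30 h its log2 change was -0.09 ± 0.17 after Foxl2 siRNA, with overlapping libraries, and -0.74 ± 0.17 in scrambled cells, where all 3 libraries at 54 h were below those at 30 h. The difference of the time changes was 0.65 ± 0.24. The sign of its small change after Foxl2 siRNA rested on 1 library, the change being 0.09 without replicate 2 at 30 h. With Esr2 siRNA the level was 29.7, 31.6 and 27.3 CPM, below all scrambled libraries at 30 h, with -0.24 ± 0.17 on the log2 scale (not called, edgeR adjusted p = 0.515).

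Gadd45a, on chromosome 6 at 67035096 to 67037407 (minus strand), is the classical p53 target of the family. It stood at 81.9, 60.6 and 98.5 CPM after Foxl2 siRNA at 54 h, against 38.7, 45.8 and 43.2 in scrambled cells, and at 56.3, 61.6 and 48.4 CPM after Foxl2 siRNA at 30 h, against 30.5, 42.6 and 38.8 in scrambled cells. The groups did not overlap at either time, but the lowest Foxl2 siRNA library of each time, at 60.6 CPM at 54 h and 48.4 at 30 h, was the one with the most Foxl2 left. Gadd45a rose 1.67-fold over both times, a log2 change of 0.74 ± 0.13 (edgeR adjusted p = 0.000417). After Esr2 siRNA it was 47.7, 38.2 and 53.5 CPM, overlapping scrambled cells, with a log2 change of 0.32 ± 0.18 (edgeR adjusted p = 0.396). Its log2 change over time was 0.53 ± 0.18 after Foxl2 siRNA and 0.19 ± 0.18 in scrambled cells, and in both courses the libraries of 54 h and 30 h overlapped. The noncoding E230016M11Rik overlaps Gadd45a on the other strand, with 20 to 68 counts in a library.

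Gadd45gip1, on chromosome 8 at 84832282 to 84835482 (plus strand), encodes CRIF1, which binds GADD45 proteins and is also a subunit of the mitochondrial ribosome. It did not follow the Gadd45 genes. Its level was 26, 25.4 and 25.5 CPM after Foxl2 siRNA at 54 h, against 33.1, 27.8 and 28.2 in scrambled cells, and 30.8, 24.3 and 31.5 CPM after Foxl2 siRNA at 30 h, against 32, 31.7 and 31.2 in scrambled cells. The groups were apart at 54 h, with Foxl2 siRNA lower, and overlapped at 30 h. The log2 change over both times, -0.17 ± 0.07, missed the threshold (edgeR adjusted p = 0.0505), and passed it without replicate 1 (0.0431) or replicate 3 (0.0241) of Foxl2 siRNA at 30 h. Esr2 siRNA libraries, at 36.7, 32.7 and 34.4 CPM, were all above the scrambled ones, at 0.13 ± 0.09 on the log2 scale (not called, edgeR adjusted p = 0.538).

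**Figure D1:**
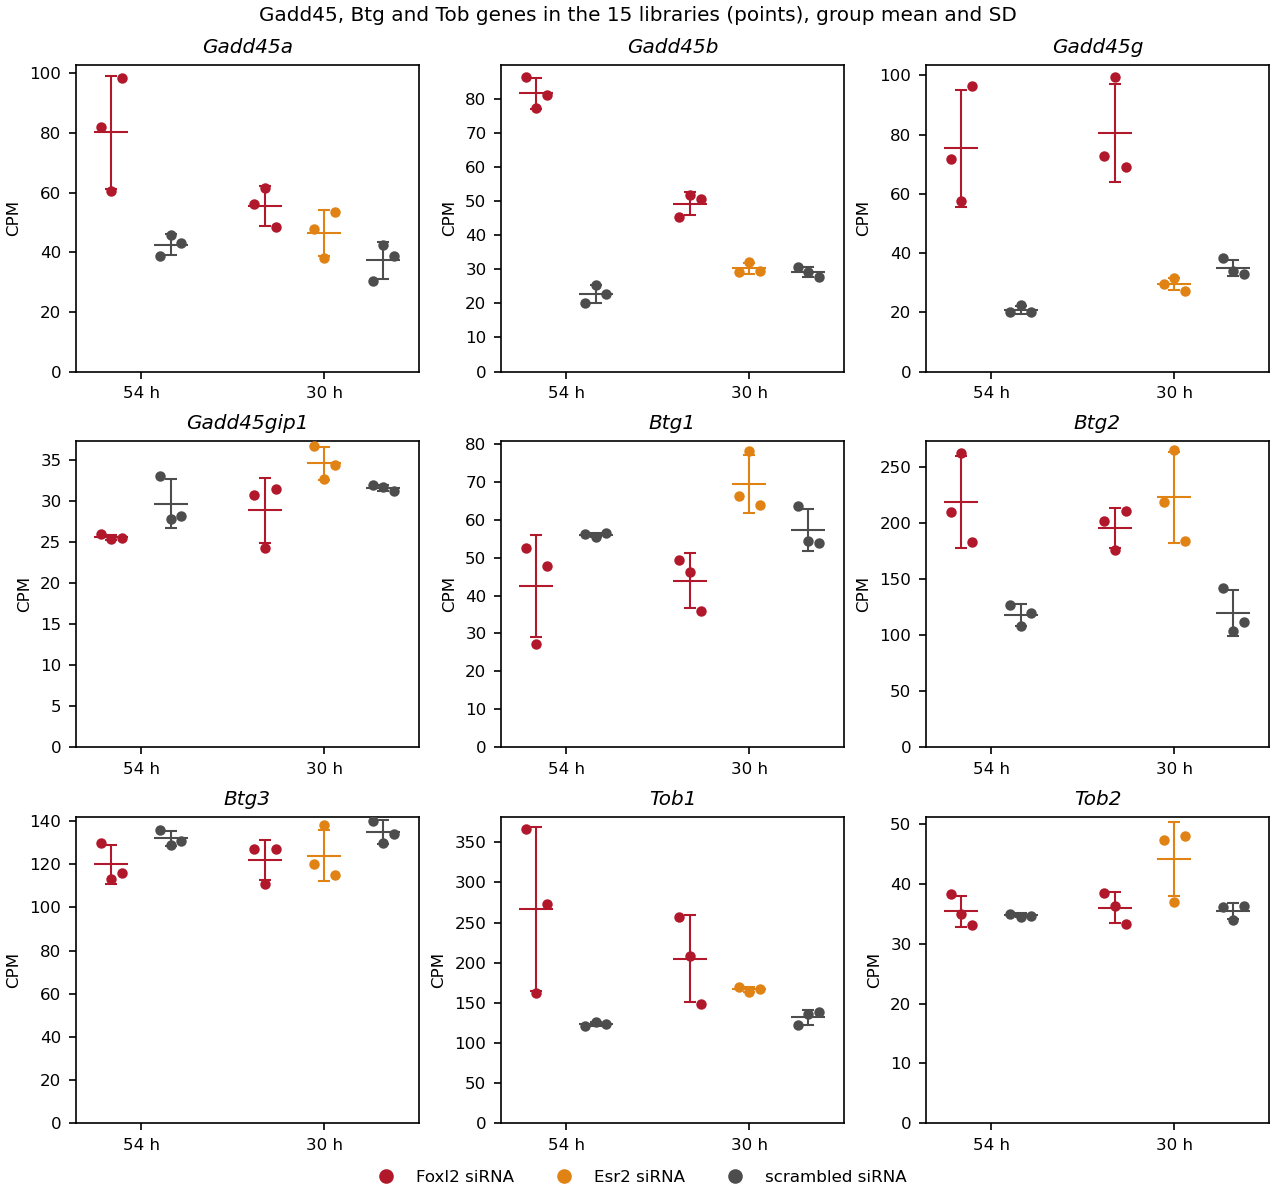
Levels of the 9 members in all 15 libraries, in TMM-normalised CPM on the vertical axis, with each point a library and each bar the mean of 3 with its SD, 54 h on the left of each panel and 30 h on the right. Gadd45b at 54 h lies between 77.3 and 86.5 CPM after Foxl2 siRNA and between 20.2 and 25.4 CPM in scrambled cells, while Btg3 lies between 111 and 140 CPM in all 15 libraries.

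Btg2, on chromosome 1 at 134074865 to 134079155 (minus strand), encodes an antiproliferative protein induced by p53 and by growth factors, and was the member that moved after both siRNAs. At 54 h it was 210, 263 and 183 CPM after Foxl2 siRNA, against 127, 108 and 120 in scrambled cells. At 30 h it was 202, 176 and 211 CPM after Foxl2 siRNA and 219, 265 and 184 CPM after Esr2 siRNA, against 142, 104 and 112 in scrambled cells. Neither knockdown overlapped scrambled cells. Btg2 rose 1.74-fold over both times after Foxl2 siRNA, a log2 change of 0.80 ± 0.11 (edgeR adjusted p = 0.000106), and 1.86-fold after Esr2 siRNA, a log2 change of 0.90 ± 0.16 (edgeR adjusted p = 0.00613). Both comparisons use the 3 scrambled libraries of 30 h.

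The level of Btg2 hardly moved with time, with log2 changes of 0.16 ± 0.16 after Foxl2 siRNA and -0.02 ± 0.16 in scrambled cells. Unlike Gadd45a, Gadd45g and Tob1, Btg2 was highest in the Foxl2 siRNA library of each time that kept the most Foxl2. It was at 263 CPM in replicate 2 at 54 h and 211 CPM in replicate 3 at 30 h.

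Tob1, on chromosome 11 at 94209842 to 94215495 (plus strand), links the CCR4-NOT deadenylase to cytoplasmic poly(A)-binding protein. It was 366, 162 and 273 CPM after Foxl2 siRNA at 54 h, against 121, 126 and 124 in scrambled cells, and 257, 208 and 149 CPM after Foxl2 siRNA at 30 h, against 122, 136 and 139 in scrambled cells. All Foxl2 siRNA libraries were above the scrambled ones of their time, and they were spread widely, with an SD of 102 CPM at 54 h against 2.57 in scrambled cells. The lowest value at each time came from the library with the most Foxl2 left. Tob1 rose 1.83-fold over both times, a log2 change of 0.87 ± 0.16 (edgeR adjusted p = 0.00094).

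Esr2 siRNA libraries held 170, 164 and 167 CPM of Tob1, all above scrambled cells, at 0.33 ± 0.23 on the log2 scale (not called, edgeR adjusted p = 0.516). In a fit of only the groups compared, which leaves out the widely spread Foxl2 siRNA libraries, Tob1 was called (0.34, edgeR adjusted p = 0.0233). The excess after Foxl2 siRNA was 1.11 ± 0.23 on the log2 scale at 54 h and 0.63 ± 0.23 at 30 h, and the value at 54 h became 0.81 without replicate 1 and 1.37 without replicate 2. The log2 change with time was 0.38 ± 0.23 after Foxl2 siRNA and -0.10 ± 0.23 in scrambled cells, with overlapping libraries in both. Single libraries moved the change after Foxl2 siRNA: it was 0.09 without replicate 1 and 0.64 without replicate 2 at 54 h, and 0.58 without replicate 1 and 0.20 without replicate 3 at 30 h.

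Btg1, on chromosome 10 at 96617001 to 96622813 (plus strand), encodes an antiproliferative protein whose gene is a known target of FoxO factors, and was the member called lower. Foxl2 siRNA libraries held 52.5, 27.3 and 47.7 CPM at 54 h, against 56.2, 55.4 and 56.5 in scrambled libraries, and 49.4, 46.3 and 35.8 CPM at 30 h, against 63.6, 54.4 and 53.9 in scrambled libraries. The groups did not overlap at either time. The lowest library of each time was again the one with the most Foxl2 left, at 27.3 CPM at 54 h and 35.8 at 30 h, so that Btg1 lay farthest from scrambled cells where Foxl2 lay nearest to them. Btg1 fell 1.31-fold over both times, a log2 change of -0.39 ± 0.14 (edgeR adjusted p = 0.0307).

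That call on Btg1 did not hold without replicate 3 of Foxl2 siRNA at 30 h (edgeR adjusted p = 0.0654), without replicate 1, 2 or 3 of scrambled cells at 54 h (0.0592, 0.0531 and 0.0601), or without replicate 1 of scrambled cells at 30 h (0.0782). At 54 h alone the log2 value was -0.40 ± 0.19, and -0.16 without replicate 2. After Esr2 siRNA the level was 66.1, 78.1 and 63.7 CPM, above the scrambled libraries by a narrow margin, with a log2 change of 0.27 ± 0.19 (edgeR adjusted p = 0.52). At 30 h all Foxl2 siRNA libraries were below all Esr2 siRNA libraries. Reads of Btg1 could be shared with the copies Btg1-ps1 and Btg1-ps2, which had at most 4 and 11 counts in a library.

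Btg3, on chromosome 16 at 78359860 to 78377181 (minus strand), and Tob2, on chromosome 15 at 81848270 to 81858326 (minus strand), encode further proteins of the family. Btg3 at 54 h was 130, 113 and 116 CPM after Foxl2 siRNA, against 136, 129 and 131 in scrambled cells. At 30 h it was 127, 111 and 127 CPM after Foxl2 siRNA and 120, 138 and 115 after Esr2 siRNA, against 140, 130 and 134 in scrambled cells. The groups overlapped at 54 h, and all Foxl2 siRNA libraries were below the scrambled ones at 30 h. Its log2 changes of -0.14 ± 0.06 after Foxl2 siRNA over both times (edgeR adjusted p = 0.0507) and -0.12 ± 0.08 after Esr2 siRNA (edgeR adjusted p = 0.51) did not pass. Without replicate 1 of Foxl2 siRNA at 54 h, replicate 3 at 30 h or replicate 2 of Esr2 siRNA the first of these was called (0.0247, 0.0394 and 0.04). Cxadr, with 10661 to 18157 counts in a library, overlaps Btg3 on the other strand. How the counting treated strand is not given here, so reads of genes that overlap on opposite strands may not be fully separated. Tob2 was 33.1 to 38.5 CPM in all Foxl2 siRNA libraries and 33.9 to 36.3 in all scrambled libraries, a log2 change of 0.03 ± 0.07 over both times (edgeR adjusted p = 0.76). In Esr2 siRNA libraries it was 47.3, 37 and 47.9 CPM, all above scrambled cells at 30 h, at 0.32 ± 0.09 on the log2 scale (not called, edgeR adjusted p = 0.0786). Replicate 2 was the lowest of these, and without it Tob2 was called (edgeR adjusted p = 0.0048).

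**Figure D2:**
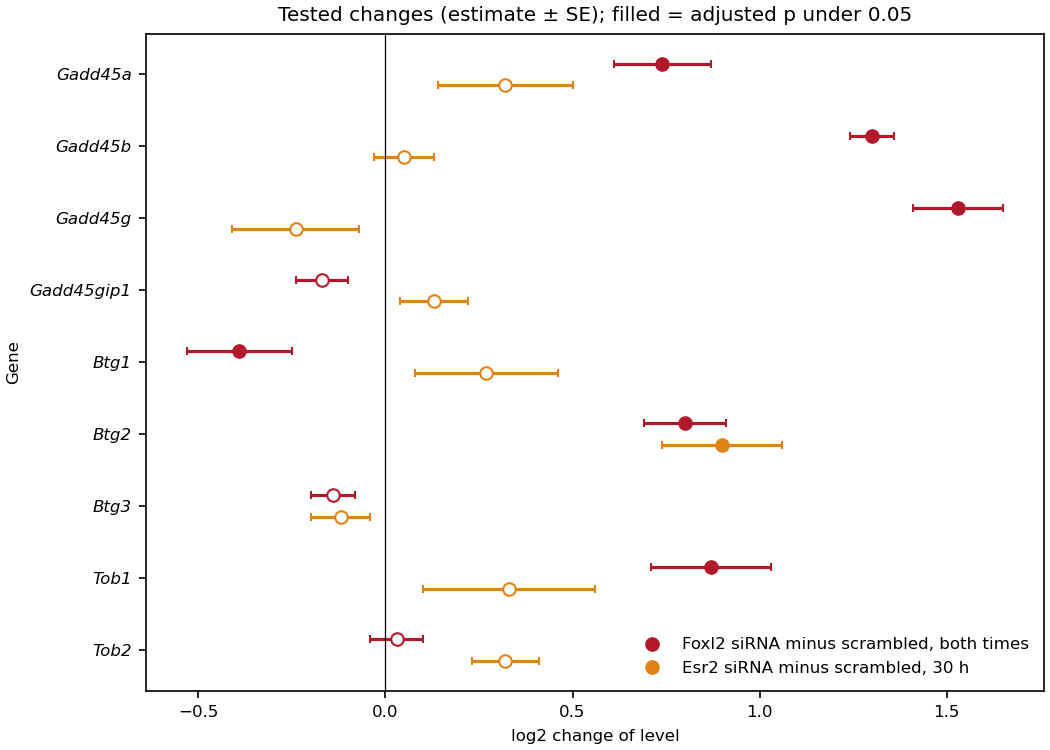
Log2 change of each member, as estimate ± SE on the horizontal axis, after Foxl2 siRNA over both times and after Esr2 siRNA at 30 h, each against scrambled cells, filled where called. Btg2 lies at 0.80 and 0.90, whereas Gadd45b at 1.30 and 0.05 and Gadd45g at 1.53 and -0.24 stand far apart between the siRNAs.

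The members' time courses, which chose the list, spread widely. After Foxl2 siRNA the median log2 change between 54 h and 30 h was -0.02, against -0.00 over all genes, and in scrambled cells it was -0.03, against 0.00 over all genes. The median difference of these time changes was 0.17, against -0.00 over all genes, and it was 0.02 without replicate 1 of scrambled cells at 30 h. Gadd45b was the 1 member of 9 whose libraries at 54 h were clear of those at 30 h after Foxl2 siRNA, where 17.4% of all genes were (8.94% higher at 54 h and 8.49% lower), and Gadd45b and Gadd45g were the 2 of 9 in scrambled cells, both lower at 54 h, where 22.7% of all genes were (11.5% higher and 11.2% lower). Gadd45b with 1.09 ± 0.12, Gadd45g with 0.65 ± 0.24, Tob1 with 0.48 ± 0.33 and Gadd45a with 0.34 ± 0.25 had the largest differences of time changes. That of Tob1 was 0.18 without replicate 1 and 0.74 without replicate 2 of Foxl2 siRNA at 54 h, and 0.30 without replicate 3 at 30 h. Without replicate 3 of Foxl2 siRNA at 54 h that of Gadd45a was 0.17 and that of Gadd45g 0.43. The remaining 5 lay between -0.08 ± 0.13 for Gadd45gip1 and 0.17 ± 0.22 for Btg2. Thus the difference came from a gain after Foxl2 siRNA and a loss in scrambled cells for Gadd45b, and mostly from a loss in scrambled cells for Gadd45g.

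**Figure D3:**
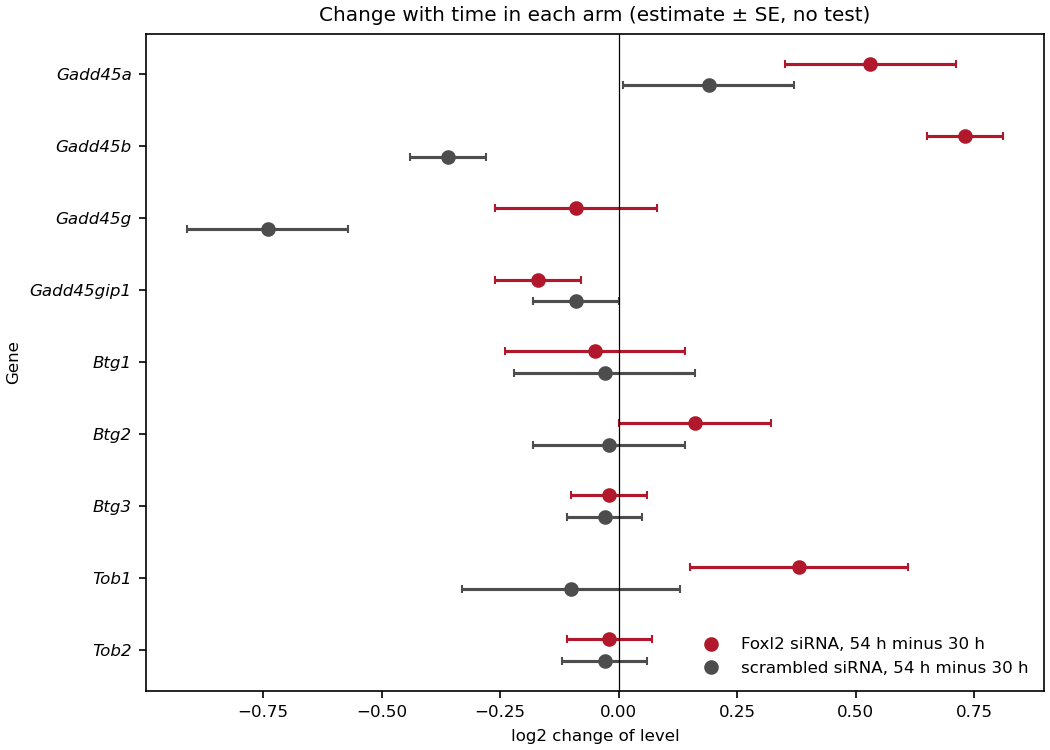
Log2 change of each member between 54 h and 30 h, as estimate ± SE on the horizontal axis, after Foxl2 siRNA and in scrambled cells. Gadd45b has 0.73 and -0.36, Gadd45g has -0.09 and -0.74, and Btg1, Btg3 and Tob2 lie near 0 after both siRNAs.

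Groups that did not overlap were also counted, without a model, and they did not always match the calls. Against scrambled cells, 5 members were higher and 2 lower in all Foxl2 siRNA libraries at 54 h, 7 of 9 where 51.4% of all genes did not overlap (23.5% higher and 27.9% lower). At 30 h the counts were again 5 higher and 2 lower, where 33% of all genes did not overlap (15.3% higher and 17.7% lower). Btg1 was lower at both times, Gadd45gip1 at 54 h and Btg3 at 30 h. Esr2 siRNA libraries were clear of scrambled cells for 6 members, Gadd45gip1, Btg1, Btg2, Tob1 and Tob2 being higher and Gadd45g lower, where 29.5% of all genes were (14.2% higher and 15.2% lower). Set directly against Esr2 siRNA at 30 h, Foxl2 siRNA libraries were higher for Gadd45b and Gadd45g and lower for Gadd45gip1 and Btg1, 4 of 9 where 34.8% of all genes did not overlap (16.9% higher and 17.9% lower).

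The order of the 5 groups differed between members. For Gadd45b it was Foxl2 siRNA at 54 h (81.6 ± 4.61 CPM), Foxl2 siRNA at 30 h (49.2 ± 3.36), Esr2 siRNA (30.3 ± 1.63), and last scrambled cells, at 30 h (29.2 ± 1.5) above 54 h (22.8 ± 2.6), of which Esr2 siRNA and scrambled cells at 30 h did not differ beyond their spread. For Gadd45g both Foxl2 siRNA groups, at 75.3 ± 19.6 CPM at 54 h and 80.4 ± 16.5 at 30 h, overlapped each other and stood above the rest, where Esr2 siRNA (29.5 ± 2.12) lay clear of scrambled cells at 54 h (20.9 ± 1.33), which were lower, and at 30 h (35 ± 2.77), which were higher. For Gadd45a, Btg3 and Tob2 every neighbour in the order overlapped the next. For Btg2 the 3 knockdown groups (196 ± 17.9 to 223 ± 40.7 CPM) overlapped and stood clear of both scrambled groups (118 ± 9.62 and 120 ± 20.2). Btg1 was lowest after Foxl2 siRNA (42.5 ± 13.4 CPM at 54 h and 43.9 ± 7.16 at 30 h) and highest after Esr2 siRNA (69.3 ± 7.71), with scrambled cells (56 ± 0.582 at 54 h and 57.3 ± 5.46 at 30 h) in between and clear of both. Tob1 had overlapping Foxl2 siRNA groups (267 ± 102 CPM at 54 h and 205 ± 53.8 at 30 h), and both also overlapped Esr2 siRNA (167 ± 3.18). All of these stood above scrambled cells (124 ± 2.57 at 54 h and 132 ± 9.53 at 30 h). Gadd45gip1 was highest after Esr2 siRNA (34.6 ± 2.01 CPM), clear of the next group, scrambled cells at 30 h. Esr2 siRNA did overlap scrambled cells at 54 h, with a lowest library of 32.7 CPM against a highest of 33.1. The other 4 groups overlapped in turn between 25.6 ± 0.313 and 31.6 ± 0.414.

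Across the 15 libraries the range of group means on the log2 CPM scale was 1.93 for Gadd45g, 1.84 for Gadd45b, 1.09 for Gadd45a, 1.03 for Tob1 and 0.90 for Btg2. Gadd45b and Gadd45g had a Pearson r of 0.89 over these libraries, Gadd45a and Tob1 of 0.847 and Gadd45a and Gadd45b of 0.823, while Btg1 ran against all 3 Gadd45 genes (r of -0.421 to -0.612). These are descriptions of 15 libraries in 5 groups, and group differences feed every value. Of all genes tested, those most like Gadd45g were Per2 (r = 0.979), Arih1 (0.977) and Aldh1a1 (0.97), those most like Gadd45b were Cyp39a1 (0.984), Csrnp1 (0.976) and Msrb3 (0.974), and those most like Gadd45a were Rnf11 (0.969), Elmod2 (0.968) and Mccc1 (0.964).

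Genes around the members in their pathways were read from lists drawn up with earlier results known, none holding a member, and counted over both times after Foxl2 siRNA against the shares of 21.3% higher and 23.7% lower over all genes. Of 25 p53 targets, the group to which Gadd45a and Btg2 belong, 10 rose and 0 fell by edgeR (1 lower at an unadjusted p under 0.05, 0 by DESeq2), or 1 fell without replicate 1 of Foxl2 siRNA at 30 h. The median log2 change of the 25 was 0.12, against 0.74 for Gadd45a. The largest among those called were Fas, a death receptor (0.45 ± 0.16, edgeR adjusted p = 0.0305, a call that 6 omissions of 1 library removed, replicate 3 at 54 h or 2 at 30 h of Foxl2 siRNA and replicates 1 and 3 at 54 h or 1 and 2 at 30 h of scrambled cells), Sesn1 (0.44 ± 0.07, 0.000339) and Eda2r (0.44 ± 0.12, 0.0117). Mdm2, the ubiquitin ligase of p53, averaged 242 and 224 CPM after Foxl2 siRNA at 54 h and 30 h, against 175 and 191 in scrambled cells (0.34 ± 0.07, edgeR adjusted p = 0.00159). Trp53 itself had a log2 change of 0.03 ± 0.04 (edgeR adjusted p = 0.55). At 54 h 11 of the 25 were called higher, where 18.5% of all genes were, and at 30 h 1 was, where 6.34% of all genes were.

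Of 12 MAP kinases and upstream kinases through which GADD45 proteins act, 3 rose and 2 fell, the lower count being 1 without replicate 1 of Foxl2 siRNA at 30 h or without scrambled replicate 2 at 54 h or replicate 3 at 30 h. Mapk13 and Mapk14, which encode p38 kinases, rose by 1.09 ± 0.20 and 0.29 ± 0.05 on the log2 scale (edgeR adjusted p = 0.000702 and 0.000937), and Mapk9, which encodes a JNK kinase, fell by 0.29 ± 0.07 (0.00474). Mapk8, another JNK gene, rose by 0.19 ± 0.05 (edgeR adjusted p = 0.0113) and was named after its value was seen. Mapk10 stayed under 1 CPM, and its log2 change of -1.37 ± 0.43 (edgeR adjusted p = 0.0204) lost its call in the same 3 omissions.

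Of 16 genes for the CCR4-NOT deadenylase and its poly(A)-binding partners, on which BTG and TOB proteins act, 1 rose and 4 fell, or 3 rose without replicate 3 of Foxl2 siRNA at 30 h. Cnot9 averaged 59.5 and 70 CPM after Foxl2 siRNA at 54 h and 30 h, against 87.8 and 89.2 in scrambled cells (log2 change -0.46 ± 0.06, edgeR adjusted p = 4.85e-05). Cnot6, a deadenylase subunit, fell by 0.59 ± 0.15 (0.00643), and Pabpc1, the main cytoplasmic poly(A)-binding protein, by 0.26 ± 0.04 (0.00022). Cnot7, the deadenylase subunit that BTG proteins bind, rose by 0.22 ± 0.07 (edgeR adjusted p = 0.0218), a call lost without replicate 1 of Foxl2 siRNA at 54 h (0.0579) or at 30 h (0.0571).

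Among 23 tested immediate early genes, the class to which Btg2 is often counted, 4 rose and 2 fell. Atf3, a stress-induced repressor, averaged 7.95 and 4.46 CPM after Foxl2 siRNA at 54 h and 30 h, against 2.42 and 2.76 in scrambled cells (1.20 ± 0.10, edgeR adjusted p = 1.56e-06), and Ier5 rose by 0.98 ± 0.14 (9.22e-05). Fos went the other way, at 4.14 and 9.28 CPM after Foxl2 siRNA, against 20.3 and 24 in scrambled cells (-1.83 ± 0.27, 0.000162), as did Klf2 (-1.0 ± 0.16, 0.000351). The list did not move as one.

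Cell cycle genes were called in both directions. Of 11 CDK inhibitors and related genes 4 rose and 5 fell: Cdkn2b, which encodes p15, rose by 1.04 ± 0.11 (edgeR adjusted p = 1.57e-05) and Cdkn2a by 0.92 ± 0.16 (0.000537), while Cdkn2c fell by 0.60 ± 0.09 (0.000194) and Rb1 by 0.52 ± 0.06 (1.08e-05). Cdkn1a, the p21 gene, rose by 0.32 ± 0.07 (edgeR adjusted p = 0.00302); it was named after its value was seen. Of 30 proliferation genes 25 fell and 4 rose, with a median log2 change of -0.45. Aurkb averaged 20.6 and 32.6 CPM after Foxl2 siRNA at 54 h and 30 h, against 41.3 and 42.8 in scrambled cells (-0.70 ± 0.11, edgeR adjusted p = 0.000244), and Rrm2 and Plk1 both fell by 0.65 (SE 0.10 and 0.15, 0.000299 and 0.00308). Ccnd1, which encodes cyclin D1, rose by 1.72 ± 0.38 (0.00262) with libraries from 23 to 209 CPM after Foxl2 siRNA. At 54 h, 4 of the 30 were called higher and 24 lower, where 18.5% and 20.3% of all genes were, and at 30 h 1 and 1 were, where 6.34% and 6.65% of all genes were (of all genes in either direction, 38.8% were called at 54 h and 13% at 30 h).

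Gadd45gip1 was read beside the large subunit of the mitochondrial ribosome, to which its protein belongs. Of 48 tested genes 21 fell and 0 rose by edgeR (0 higher at an unadjusted p under 0.05, 0 by DESeq2), 2 rose without replicate 2 of Foxl2 siRNA at 30 h, and the median log2 change was -0.14, near the -0.17 of Gadd45gip1. Mrpl16 fell by 0.73 ± 0.12 (edgeR adjusted p = 0.00043), Mrpl50 by 0.46 ± 0.07 (0.000276) and Mrpl4 by 0.48 ± 0.12 (0.00698). Mrpl30 had the largest value, -1.27 ± 0.47 (edgeR adjusted p = 0.0434), a call that did not hold in a fit of the compared groups alone (0.0696) or in 13 of the 15 omissions of 1 library (0.0536 to 0.0907).

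Of 16 NF-kB targets, a class that includes Gadd45b, 2 rose and 5 fell. Tnfaip3, a feedback inhibitor of NF-kB, averaged 25.1 and 42.4 CPM after Foxl2 siRNA at 54 h and 30 h, against 62 and 89.8 in scrambled cells (-1.19 ± 0.14, edgeR adjusted p = 2.8e-05). Traf1 and Cxcl1 fell by 1.60 ± 0.24 (0.000158) and 1.02 ± 0.29 (0.013), and Vcam1 rose by 1.23 ± 0.29 (0.00397). All had low levels, with group means between 0.376 CPM for Traf1 and 3.88 CPM for Vcam1, both after Foxl2 siRNA at 54 h. Of the 4 genes for FoxO factors, Foxo1 fell by 0.83 ± 0.09 (edgeR adjusted p = 1.73e-05), Foxo6 rose by 0.67 ± 0.05 (4.62e-07) and Foxo4 rose by 0.24 ± 0.08 (0.0259), a call that did not hold without replicate 1 at 54 h or replicate 1 or 2 at 30 h of Foxl2 siRNA, or without scrambled replicate 3 at 54 h or 1 at 30 h (0.0524 to 0.0629).

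After Esr2 siRNA, 0 of the 184 different genes of these lists were called higher and 4 lower by edgeR, where 1.13% and 3.11% of all genes were (10 higher and 9 lower at an unadjusted p under 0.05, 2 and 5 by DESeq2). The 4 were Map2k7 (log2 change -0.36 ± 0.07, edgeR adjusted p = 0.0146) and Map2k6 (-0.63 ± 0.15, 0.0287), upstream kinases of JNK and p38, Mrpl34 (-0.72 ± 0.10, 0.0012) and Foxo1 (-0.55 ± 0.13, 0.0336). Foxo1 averaged 34.4 ± 4.63 CPM after Esr2 siRNA and 31.6 ± 2.02 after Foxl2 siRNA at 30 h, against 50.3 ± 10.4 in scrambled cells. Of the 25 p53 targets 0 were called by edgeR (2 higher and 2 lower at an unadjusted p under 0.05, 0 by DESeq2) where Btg2, itself a p53 target, rose.

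**Figure D4:**
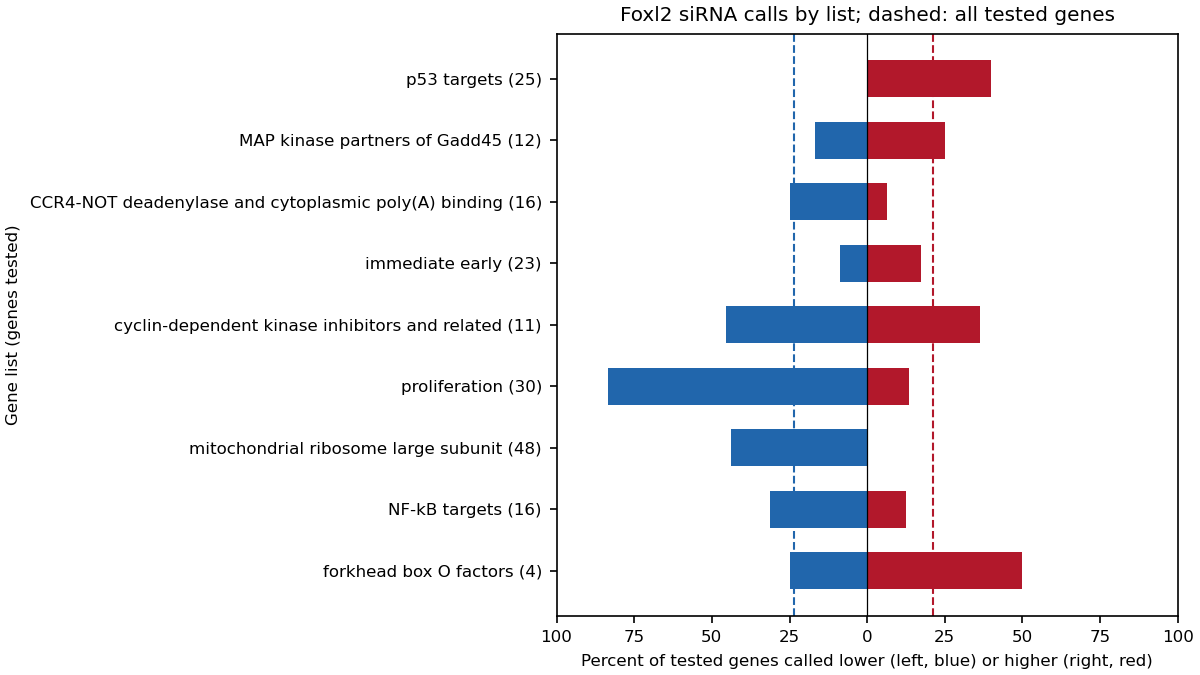
Percent of the tested genes of each pathway list called higher (right) or lower (left) over both times after Foxl2 siRNA against scrambled cells (edgeR, adjusted p under 0.05), with dashed lines at the shares over all tested genes, 21.3% and 23.7%. The p53 targets have 10 higher and 0 lower of 25, the proliferation genes 4 higher and 25 lower of 30, and the mitochondrial ribosome genes 0 higher and 21 lower of 48.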

How the data were processed

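The authors deposited whole-number counts of reads per gene, 1 file for each of 15 libraries, from single 75-base reads of stranded poly(A) libraries. Tools named in the submitters' processing notes are bcl2fastq 2.15.0, TopHat2 and DESeq2, with the build mm10. What counted the reads, on which annotation and with which strand setting, is not given in the sources used here. In 1 library 15 symbols stored as dates were restored, and ERCC spike-ins (0.105% to 0.352% of counts) were left out.

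The counts were fitted with edgeR 4.0.16 in R 4.3.3: TMM scaling, the filterByExpr filter, 1 model with a mean for each of 5 groups (10 residual degrees of freedom), quasi-likelihood tests (two-sided) and Benjamini-Hochberg adjustment over 14907 genes at 0.05. Code was tested on simulated data. The biological coefficient of variation was 0.148. Replicates differed beyond sampling noise (chi-square per degree of freedom 6.89 to 123). DESeq2 1.42.0, other scalings, no filter, a replicate block and omitted libraries were alternatives. Log2 CPM used a prior count of 2. A permutation of 3 against 3 libraries was not used. From the data alone, replicate numbers tied the scrambled libraries of 54 h and 30 h (deviations of same-numbered libraries correlated at r of 0.632, 0.49 and 0.143), a pairing that the labels do not state.

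The members and lists were chosen with earlier results of these data known. All 9 members are named. From each list up to 4 called genes with the largest log2 change over both times are named. Trp53, Cdkn1a, Mapk8 and the list genes called after Esr2 siRNA were named after their values were seen. The genes named for likeness are the 3 with the highest r to each of the 3 members of widest range. Sequences and positions are from RefSeq, GRCm38.p6.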

Additional observations from a re-analysis of the deposited data

Results flagged for a closer look

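Gadd45b moved in opposite directions with time: every library at 54 h was above every library at 30 h after Foxl2 siRNA (log2 change 0.73) and below every one in scrambled cells (-0.36). Gadd45g lay above all scrambled libraries at 30 h after Foxl2 siRNA (1.20) and below all of them after Esr2 siRNA (-0.24). Btg1 did the reverse, below after Foxl2 siRNA (-0.39) and above after Esr2 siRNA (0.27). Neither change after Esr2 siRNA was called (edgeR adjusted p = 0.515 for Gadd45g and 0.52 for Btg1). The lowest Esr2 siRNA library of Btg1, at 63.7 CPM, barely cleared the highest scrambled one, at 63.6. The values of Gadd45g and of Btg1 share the same 3 scrambled libraries. None of these 3 differences was tested.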

How the results depend on the processing

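The count of members called after Foxl2 siRNA over both times was 6, and 5 to 7 when 1 library at a time was left out. For Esr2 siRNA it was 1, and 1 to 2 in such omissions; it was 2 with DESeq2, 2 when only the groups compared were fitted, and 2 without both Foxl2 siRNA libraries that kept the most Foxl2, an alternative added after seeing the data. The median log2 time change was -0.02 after Foxl2 siRNA (-0.06 to 0.08 with 1 library left out) and -0.03 in scrambled cells (-0.08 to -0.01), and the median difference was 0.17 (0.02 to 0.24, and 0.10 without both Foxl2 siRNA libraries). Signs turned for Tob2 over both times (-0.00 to 0.05 with 1 library left out), and over time for Gadd45g (-0.31 to 0.09) and Btg1 (-0.23 to 0.19). The cause was not tested. Over all genes, 631 were called after Esr2 siRNA, against 1097 with DESeq2, 1131 with only the groups compared, 1535 without both libraries, and 238 to 1030 with 1 library left out. Of all 30 same-numbered pairs 15 had r above 0.1. Apart from scrambled cells over time, no groups compared had r above 0.1 in every same-numbered pair. For Foxl2 siRNA against scrambled cells r was 0.494, 0.439 and 0.0662 at 30 h, and 0.397, 0.0154 and 0.136 at 54 h. Whether replicate numbers mark pairs there is thus not settled. Between Foxl2 siRNA at 30 h and at 54 h the same-numbered r was 0.659, -0.257 and -0.294. Replicate 3 at 30 h and replicate 2 at 54 h, which kept the most Foxl2, had r of 0.643. Replicate 2 at 30 h and replicate 3 at 54 h had 0.545. Whether the libraries that kept the most Foxl2 are independent observations was not tested. The replicate block called 7 and 1 members, adding Gadd45gip1 (edgeR adjusted p = 0.0285), with medians of -0.03, -0.03 and 0.16. Every member had 1094 counts or more in each library.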
